A study of Mus musculus with 6 samples.

Results

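A set of 10 genes of tumour necrosis factor (TNF) biology was followed in mouse brain microglia after experimental stroke. They are the ligand genes Tnf, Tnfsf9, Tnfsf12 and Tnfsf13b, the receptor genes Tnfrsf1a, Tnfrsf1b and Cd40, the adaptor gene Traf1, and Tnfaip2 and Tnfaip8l2, both named for the factor. They were taken by symbol from a deposited table of 38207 genes and loci, and each of the 10 symbols stood on 1 line. The table holds 6 libraries of PCR-amplified cDNA read on nanopores, 3 from wild-type (WT) mice after tMCAO and 3 from wild-type mice after sham surgery. The abbreviation tMCAO usually stands for transient middle cerebral artery occlusion, in which a brain artery is blocked and then reopened. Each library pools the microglia of 30 mice, so its value is an average over animals. The sources used here do not state strain, age, sex, the time after surgery or how the cells were isolated. The question is how gene expression of brain microglia differs after ischemic stroke.

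TNF family ligands are made as membrane proteins, some of which are cut free, and they signal by drawing receptor chains together. The receptors have no enzyme activity of their own. They recruit TRAF adaptors, or death domain adaptors, which switch on NF-kB and MAP kinases or start cell death. Microglia and other macrophages are a main source of TNF in the injured brain. TNF receptor 1 is found on most cells, while TNF receptor 2 is more restricted and prominent on microglia and other immune and vascular cells.

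Library totals were 1855495 to 2030550 counts in tMCAO libraries and 2371235 to 2614512 in sham libraries, so that 1 count equals 0.382 to 0.539 counts per 1000000 counts of a library (CPM). The 8 microglial markers, Tmem119 and P2ry12 among them, were all detected and summed to 19785 to 22492 CPM in tMCAO libraries and 24349 to 25041 CPM in sham libraries. The second principal component (19.8% of the variance of log2 CPM) set tMCAO 3, at -50.6, apart from tMCAO 1 and 2, at 31.4 and 24.3, and sham 1, at -18.0, apart from sham 2 and 3, at 4.69 and 8.21. Below, levels are CPM, given per library in the order 1, 2, 3 of the labels. Log2 fold changes set tMCAO over sham with their standard error (SE), and "rose" or "fell" is used where edgeR's quasi-likelihood test gave an adjusted p under 0.05 over the 13127 genes and loci tested. The labels do not say that the pools were prepared independently, so the p-values reflect only how far these pools differ, which may be technical. In bulk pools, more RNA per cell and more cells of a type cannot be told apart.

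Of the 10 genes, 9 had enough counts to be tested, and 4 of those rose: Tnf, Tnfsf9, Tnfsf12 and Tnfaip2. None fell, with edgeR, DESeq2 or limma voom, or at an unadjusted edgeR p under 0.05. Among all genes tested, 9.17% were called higher and 8.96% lower, 18.1% in all. The tMCAO and sham libraries did not overlap for 8 of the 9, each time with tMCAO above, a pattern that 23.3% of all tested genes shared, while 14.6% had tMCAO below and 37.8% were apart either way. The median log2 fold change of the 9 was 1.18, beside 0.00027 over all genes and loci tested and 0.094 over the 8528 known genes among them. Tnfsf9 and Cd40 passed the filter on low counts through the tMCAO libraries alone, so these summaries describe the genes and are not support for a direction. Here and below, this wording means that all 3 tMCAO libraries, but not all 3 sham libraries, reached the cutoff of 4.54 CPM. For the sham libraries it means the reverse. The filter itself counted libraries of either group. By role, 3 of the 4 ligand genes rose and 0 of the 3 receptor genes did with any of the 3 tools (1, Cd40, at an unadjusted edgeR p under 0.05), and whether the roles differ was not tested.

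**Figure D1:**
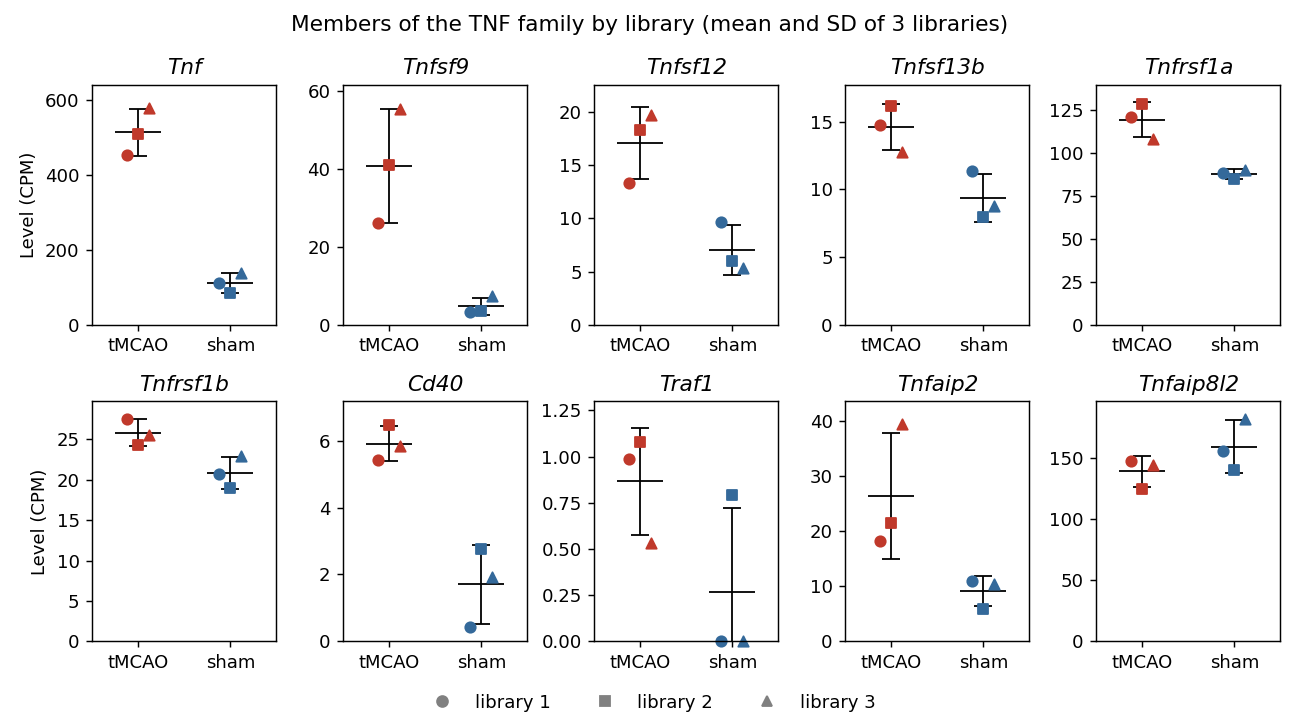
Level (CPM, vertical axis from 0, own scale per panel) of each of the 10 genes in the 3 tMCAO and the 3 sham libraries; symbols mark the library number, and bars show the mean and SD of 3 libraries. Tnf stands at 453 to 579 CPM in tMCAO and at 84.0 to 139 CPM in sham, while Tnfaip8l2 overlaps between the groups.

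Tnf encodes the founding cytokine of the family, a trimer that is active on the membrane and, once cut off, in solution. Its levels (ENSMUSG00000024401) were 453, 509 and 579 CPM in tMCAO libraries, against 112, 84.0 and 139 CPM in sham libraries. Every tMCAO library lay far above every sham library, and library 3 was the highest in both groups. Tnf rose by 2.10 ± 0.19 (log2 fold change ± SE, edgeR adjusted p = 2.57e-05), a 4.27-fold difference, with 920 to 1088 counts per tMCAO library and 212 to 363 per sham library. The call held under all 13 alternative settings tried, with a log2 fold change of 1.94 to 2.25 and an adjusted p of at most 0.000598.

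Tnf and Tnfaip2 are the members called higher for which the RefSeq promoter table has an entry, and Tnfrsf1a is shown beside them as a receptor gene that was not called. Each window runs from 250 bases before to 50 after the annotated start (RefSeq, GRCm38.p6), 5′ to 3′ on the strand of the gene. Capitals mark matches, on either strand, to the TATA box pattern TATAAA, the GC box pattern GGGCGG, the STAT pattern TTCNNNGAA, the AP-1 pattern TGANTCA, the core of the interferon response element (ISRE core, GAAA with any 2 bases before another GAAA) or the kappa B consensus, with N for any base.
Tnf (chr17:35201958-35202257, minus strand): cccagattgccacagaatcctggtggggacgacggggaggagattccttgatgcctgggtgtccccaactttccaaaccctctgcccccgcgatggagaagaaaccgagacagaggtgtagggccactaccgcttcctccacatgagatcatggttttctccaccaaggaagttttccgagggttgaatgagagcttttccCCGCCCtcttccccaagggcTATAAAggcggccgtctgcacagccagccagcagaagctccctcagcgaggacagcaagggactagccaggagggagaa
Tnfaip2 (chr12:111442411-111442710, plus strand): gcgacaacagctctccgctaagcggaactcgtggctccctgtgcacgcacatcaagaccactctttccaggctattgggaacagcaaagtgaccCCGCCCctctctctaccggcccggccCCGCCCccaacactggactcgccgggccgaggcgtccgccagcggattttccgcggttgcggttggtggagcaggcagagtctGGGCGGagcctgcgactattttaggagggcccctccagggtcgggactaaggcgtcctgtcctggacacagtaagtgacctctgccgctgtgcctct
Tnfrsf1a (chr6:125349473-125349772, plus strand): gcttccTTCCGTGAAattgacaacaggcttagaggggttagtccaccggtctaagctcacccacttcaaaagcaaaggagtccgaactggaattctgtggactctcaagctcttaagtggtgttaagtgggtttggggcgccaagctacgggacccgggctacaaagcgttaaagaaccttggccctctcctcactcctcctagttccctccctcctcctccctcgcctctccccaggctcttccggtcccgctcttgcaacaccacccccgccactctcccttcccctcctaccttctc

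The Tnf window held TATAAA, whose first base lies 29 bases before the start, and a GGGCGG match 49 bases before it on the opposite strand. Of all 32851 promoter windows in the table, 13.6% held TATAAA and 35.7% held GGGCGG. The Tnfaip2 window held GGGCGG at 3 places and no TATAAA. The Tnfrsf1a window held TTCNNNGAA, as did 8.30% of all windows. Of the 10 genes, 7 had an entry, in 8 windows, and Tnfsf9, Tnfsf12 and Cd40 had none. Tnfrsf1b held the GC box, STAT and ISRE core patterns, and Tnfsf13b held the AP-1 and ISRE core patterns, found in 7.81% and 3.44% of all windows. The kappa B consensus, which NF-kB binds, matched none of the 8 windows and 4.51% of all windows, which says only that these letters are not in this stretch. Such matches describe sequence and are not evidence of binding.

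The Tnf messenger is also known for an AU-rich element in its 3′ untranslated region, through which the protein tristetraprolin shortens its life. In the GENCODE M21 transcript (GRCm38), this region is 764 bases long and holds the nonamer TTATTTATT at 5 places, some of them overlapping. Of 2657 mouse genes with a region of similar length (at most 20% shorter or 25% longer), 4.10% held the nonamer at all. The 30 bases that start 435 bases after the stop codon contain 4 of the 5 copies, with the matches in capitals and T for U.
Tnf AU-rich stretch: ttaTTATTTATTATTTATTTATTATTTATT
Of the other 9 genes, Tnfsf13b held the nonamer once, in a region of 3631 bases, and the rest did not hold it.

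Tnfsf9 encodes the ligand of the costimulatory receptor 4-1BB of T and NK cells. Its levels (ENSMUSG00000035678) were 26.1, 41.0 and 55.4 CPM in tMCAO libraries, against 3.37, 3.57 and 7.27 CPM in sham libraries. The groups were well apart, and library 3 was again highest in each. Tnfsf9 rose by 2.98 ± 0.38 (edgeR adjusted p = 0.000365), a 7.88-fold difference with a 95% interval of 2.15 to 3.81 in log2, the largest estimate among the 9. Sham libraries held only 8, 9 and 19 counts, which limits the precision of the fold. The call held under all 13 alternatives, at 2.44 to 3.39 and an adjusted p of at most 0.00373. Tnfrsf9, the gene of its receptor, had 2 counts in all 6 libraries together. A gene annotated on the opposite strand overlaps Tnfsf9, and the use of strand in counting is not stated.

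Tnfsf12 encodes TWEAK, a ligand linked to tissue injury and repair. Its levels (ENSMUSG00000097328) were 13.3, 18.3 and 19.7 CPM in tMCAO libraries, against 9.70, 5.95 and 5.35 CPM in sham libraries. The lowest tMCAO library stood above the highest sham library, by a narrower margin than for Tnf. Tnfsf12 rose by 1.18 ± 0.33 (edgeR adjusted p = 0.0262), a 2.26-fold difference. The call was lost with DESeq2 (0.0579) and without tMCAO 2 (0.0729), tMCAO 3 (0.0606), sham 2 (0.0693), sham 3 (0.105) or both sham 1 and tMCAO 3 (0.0564), and the adjusted p-values of all alternatives spanned 0.00472 to 0.105. A read-through gene that joins Tnfsf12 and Tnfsf13, Tnfsfm13, overlaps it on the same strand and held 17 counts over the 6 libraries, so the split of reads among them is uncertain. Tnfsf12 is overlapped by a gene annotated on the opposite strand as well.

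The TWEAK receptor gene Tnfrsf12a, which encodes Fn14, also rose, and whether it moves with its ligand gene was not tested. It had 27.6, 24.3 and 21.3 CPM in tMCAO libraries, against 11.0, 7.93 and 11.9 CPM in sham libraries, with no overlap. Its log2 fold change was 1.13 ± 0.26 (edgeR adjusted p = 0.00906). Over the alternatives it stayed between 1.00 and 1.24, with an adjusted p of at most 0.0379.

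Tnfsf13b encodes BAFF, the survival factor of B cells. Its levels (ENSMUSG00000031497) were 14.8, 16.2 and 12.8 CPM in tMCAO libraries, against 11.4, 7.93 and 8.80 CPM in sham libraries. The groups did not overlap in CPM, at 30, 30 and 24 counts in tMCAO libraries and 27, 20 and 23 in sham libraries, and the gene did not pass (0.52 ± 0.28, 95% interval -0.10 to 1.13, edgeR adjusted p = 0.229). Tnfsf13b, too, is overlapped by a gene annotated on the opposite strand. Of the 3 BAFF receptor genes, Tnfrsf17, which encodes BCMA, fell. It had 22.2, 21.6 and 17.6 CPM in tMCAO libraries, against 51.0, 36.1 and 44.0 CPM in sham libraries, a log2 fold change of -1.21 ± 0.21 (edgeR adjusted p = 0.00193) that stayed called under every alternative, with an adjusted p of at most 0.0188. Tnfrsf13b, which encodes TACI, had 112 ± 15.8 CPM in tMCAO and 121 ± 8.70 CPM in sham (SD, n = 3 each) and did not pass (-0.23 ± 0.17). Tnfrsf13c, the gene of the BAFF receptor proper, had 0 of 13272384 counts, which allows up to 0.226 CPM. The 5 B cell markers summed to 18.9 to 36.2 CPM in tMCAO libraries and 29.5 to 38.4 CPM in sham libraries. Most of that was Cd79b, at 28.0 CPM in tMCAO and 29.9 CPM in sham, which was the only one tested and did not pass. Cd79a had 0, 1 and 0 counts in tMCAO libraries and 10, 13 and 4 in sham libraries, with no overlap, and Ms4a1 averaged 0 CPM in tMCAO and 0.801 CPM in sham. Their part in the fall of Tnfrsf17 was not tested.

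Tnfrsf1a encodes TNF receptor 1, which carries a death domain. Its levels (ENSMUSG00000030341) were 121, 128 and 108 CPM in tMCAO libraries, against 88.1, 84.8 and 90.3 CPM in sham libraries. All tMCAO libraries were above all sham libraries, and the sham libraries lay close together. The difference did not pass (0.32 ± 0.15, 95% interval -0.01 to 0.65, edgeR adjusted p = 0.166), and its interval reaches just below 0. Under the alternatives adjusted p ran from 0.0618 to 0.377.

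Tnfrsf1b encodes TNF receptor 2, which has no death domain and binds TRAF proteins directly. Its levels (ENSMUSG00000028599) were 27.6, 24.3 and 25.6 CPM in tMCAO libraries, against 20.7, 19.0 and 22.9 CPM in sham libraries. The lowest tMCAO value was just above the highest sham value, and the gene did not pass (0.19 ± 0.22, 95% interval -0.28 to 0.65, edgeR adjusted p = 0.589). Tnfrsf1b held 18.5%, 15.9% and 19.1% of the summed counts of the pair of TNF receptor genes in tMCAO libraries, against 19.0%, 18.3% and 20.3% in sham libraries. These shares overlapped (difference of means -1.34 percentage points, two-sided exact permutation p = 0.5, 0.5 adjusted over 3 measures).

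Ratios of counts within a library do not depend on how libraries are scaled. For each Tnfrsf1a count there were 3.74, 3.97 and 5.36 Tnf counts in tMCAO libraries, against 1.27, 0.991 and 1.54 in sham libraries. For each 100 Tnf counts there were 5.76, 8.05 and 9.56 Tnfsf9 counts in tMCAO libraries, against 3.01, 4.25 and 5.23 in sham libraries. Neither ratio overlapped between the groups, and each gave a two-sided exact permutation p = 0.1, the smallest that 3 libraries against 3 allow (0.15 adjusted over the 3 measures). Both ratios were chosen after the gene levels had been seen.

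**Figure D2:**
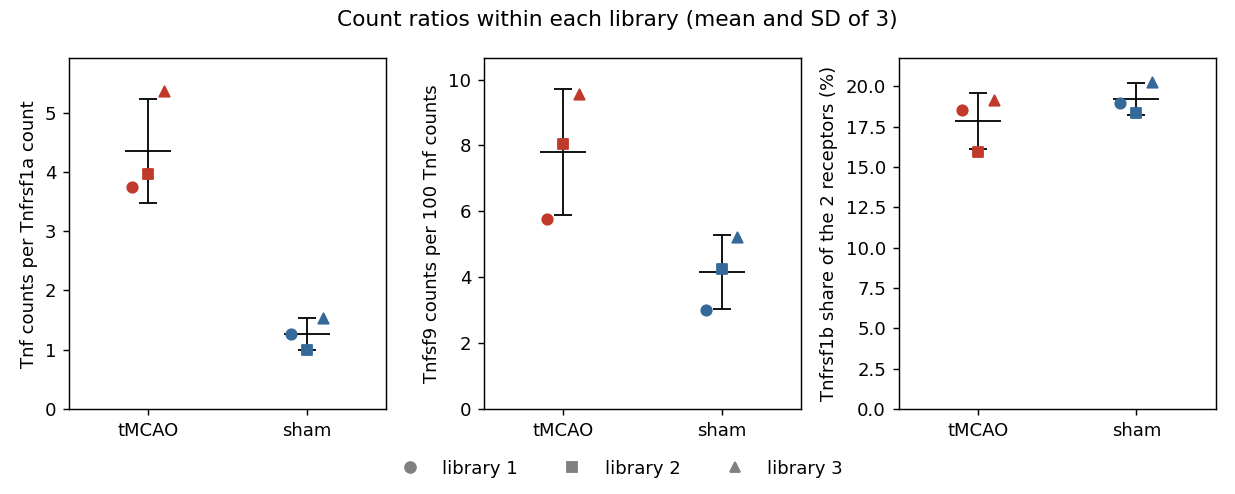
Count ratios (vertical axes from 0) in the 3 tMCAO and the 3 sham libraries, with symbols for the library number and bars for the mean and SD of 3. Tnf counts per Tnfrsf1a count are 3.74 to 5.36 in tMCAO and 0.991 to 1.54 in sham, while the Tnfrsf1b share of both TNF receptor genes overlaps.

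Cd40 encodes the receptor by which antigen-presenting cells, microglia among them, receive help from T cells. Its levels (ENSMUSG00000017652) were 5.42, 6.47 and 5.86 CPM in tMCAO libraries, against 0.422, 2.77 and 1.91 CPM in sham libraries. The groups did not overlap, at 11, 12 and 11 counts in tMCAO libraries and 1, 7 and 5 in sham libraries. With a log2 fold change of 1.62 ± 0.53, the gene missed the threshold narrowly (edgeR adjusted p = 0.0510). It passed with scaling by library totals (0.0414), with no filter on low counts (0.0254) and without sham 2 (0.0485), and reached 0.205 without sham 1. Cd40lg, the gene of its ligand, had 2 counts in all, both in sham libraries.

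Traf1 encodes an adaptor that NF-kB induces and that binds TNF receptor 2 together with TRAF2. It had 2, 2 and 1 counts in tMCAO libraries and 0, 2 and 0 in sham libraries (ENSMUSG00000026875), too few to test and overlapping. With no filter on low counts edgeR gave it an adjusted p of 0.552. Traf2, which was not among the 10, had 37.1 ± 4.11 CPM in tMCAO and 30.4 ± 2.87 CPM in sham with no overlap, and did not pass.

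Tnfaip2 encodes a protein first found as induced by TNF in endothelial cells and linked to thin membrane tubes between cells. Its levels (ENSMUSG00000021281) were 18.2, 21.6 and 39.4 CPM in tMCAO libraries, against 11.0, 5.95 and 10.3 CPM in sham libraries. The groups did not overlap, and tMCAO 3 stood well above the other tMCAO libraries. Tnfaip2 rose by 1.44 ± 0.36 (edgeR adjusted p = 0.0161), a 2.70-fold difference. Without tMCAO 3 the log2 fold change was 1.00 (adjusted p = 0.0457). The call was lost without sham 2 (0.0522), without sham 3 (0.0504) and with both sham 1 and tMCAO 3 left out (0.0710), and the lowest adjusted p among the alternatives was 2.21e-05. A gene annotated on the opposite strand also overlaps Tnfaip2.

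Tnfaip8l2 encodes TIPE2, which restrains Toll-like and T cell receptor signalling in mice. Its levels (ENSMUSG00000013707) were 148, 124 and 144 CPM in tMCAO libraries, against 156, 140 and 182 CPM in sham libraries. The groups overlapped, and it was the only one of the 9 with a fold change below 0. The gene did not pass (-0.31 ± 0.16, 95% interval -0.66 to 0.04, edgeR adjusted p = 0.208).

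**Figure D3:**
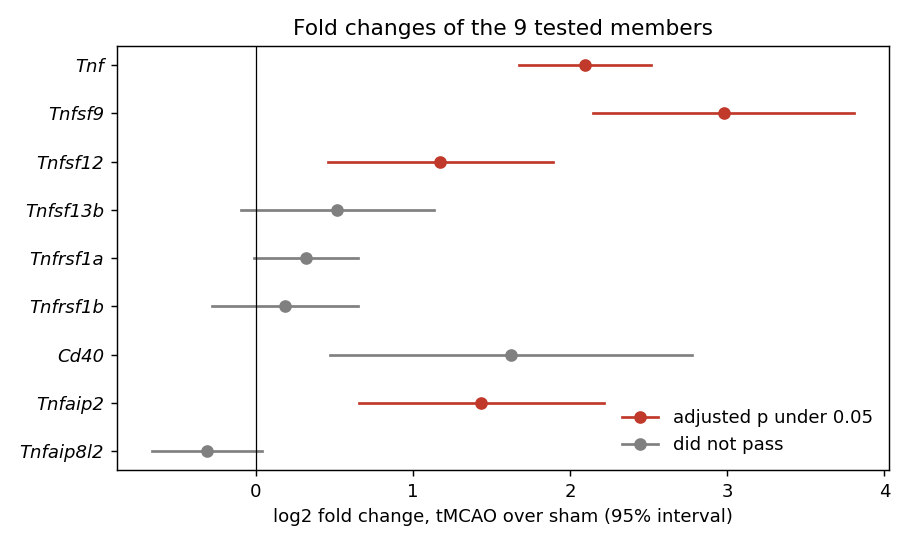
Log2 fold change of tMCAO over sham (horizontal axis) with its 95% interval for the 9 genes tested with edgeR; red marks an adjusted p under 0.05 and grey the rest. Tnf (2.10), Tnfsf9 (2.98), Tnfsf12 (1.18) and Tnfaip2 (1.44) are red, and the intervals of Tnfsf13b, Tnfrsf1a, Tnfrsf1b and Tnfaip8l2 include 0.

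The other genes of the pathway were taken from 5 lists by role, 81 genes in all. Of these, 41 were tested, 9 rose and 1 fell, beside the 9.17% and 8.96% of all genes, and their median log2 fold change was 0.41. Of the 41, 7 passed the filter on low counts through the tMCAO libraries alone, 3 of the 9 called higher among them (Rnf31, Tnip1 and Rhbdf2), and 3 through the sham libraries alone, so this count and median describe the genes tested and are no support for a direction. Without sham 1 or sham 3, 4 genes of these lists rose, as with DESeq2. Without tMCAO 2 it was 5, among them Tnfsf13, which is not part of the 9. Among 14 other ligand genes, 2 were tested and neither passed. Tnfsf13, which encodes APRIL, had 15.8, 7.01 and 11.7 CPM in tMCAO libraries, against 4.22, 5.55 and 4.59 CPM in sham libraries (1.14 ± 0.38, edgeR adjusted p = 0.0547). Tnfsf10, the gene of the death ligand TRAIL, had 10.3, 9.70 and 7.99 CPM in tMCAO libraries, against 5.48, 2.77 and 3.82 CPM in sham libraries (1.09 ± 0.37, edgeR adjusted p = 0.0558). Both were apart between the groups, passed the filter through tMCAO libraries alone, and passed the test when libraries were scaled by their totals (0.0412 and 0.0465). Tnfsf13 also passed with no filter on low counts (0.0254) and without tMCAO 2 (0.0305). The ligand genes Lta, Tnfsf4, Cd70, Tnfsf11 and Eda had no count in any library, as had the receptor genes Tnfrsf11b, Tnfrsf13c, Eda2r and Edar, which allows up to 0.226 CPM for each.

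Among 25 other receptor genes, 9 were tested, and Tnfrsf12a rose and Tnfrsf17 fell, as given above. Beside these stand the shares over all genes tested, 9.17% called higher and 8.96% called lower. With so few genes tested, the counts do not set this list apart. Tnfrsf21, which encodes death receptor 6 (-0.46 ± 0.30), and Tnfrsf11a, the receptor of RANK ligand (0.19 ± 0.36), did not pass.

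Adaptors, ligases and kinases, which carry the signal inward, rose in 5 of 20 tested genes and fell in none, with a median of 0.59. The shares over all genes tested were 9.17% called higher and 8.96% called lower. Of the 20, 11 had all tMCAO libraries above all sham libraries, and 2 had them below, beside 23.3% and 14.6% of all genes. The 2 were Chuk (-1.09 ± 0.41, edgeR adjusted p = 0.0821) and Cflar (-0.40 ± 0.16, 0.0978), which did not pass. Traf5 and Rnf31 passed the filter through the tMCAO libraries alone, and Chuk through the sham libraries alone. The counts and the median of this list therefore describe the genes tested and are no support for a direction. Birc3, which encodes the ubiquitin ligase cIAP2, had 90.1, 129 and 71.4 CPM in tMCAO libraries, against 55.7, 38.8 and 51.6 CPM in sham libraries (0.87 ± 0.21, edgeR adjusted p = 0.0144). Rnf31 (1.97 ± 0.53, edgeR adjusted p = 0.0211) and Sharpin (0.85 ± 0.27, 0.0461) encode parts of the LUBAC complex, which builds linear ubiquitin chains at TNF receptor 1. Rnf31 had 6.89, 5.39 and 8.52 CPM in tMCAO libraries, against 0.422, 2.38 and 1.91 CPM in sham libraries, and passed the filter on low counts through the tMCAO libraries alone. The remaining LUBAC gene, Rbck1, had 12.4 ± 4.32 CPM in tMCAO and 8.05 ± 2.31 CPM in sham and did not pass (0.49 ± 0.35). Traf7 (0.86 ± 0.24, 0.0254) and Tank (0.78 ± 0.23, 0.0286), a TRAF-binding regulator of NF-kB, also rose. All 5 calls were lost under some alternatives: Birc3 without tMCAO 2 or sham 2 (0.0543 to 0.0607), and each of the others with DESeq2 and in 4 or more further settings, at adjusted p-values of up to 0.184.

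In the role list of genes induced by TNF or acting in feedback, 2 of 7 tested rose. Over all genes tested, 9.17% were called higher. Nfkbia encodes IkB-alpha, the inhibitor that NF-kB itself induces. It had 1000, 1172 and 1437 CPM in tMCAO libraries, against 431, 387 and 644 CPM in sham libraries, and rose by 1.20 ± 0.21 (edgeR adjusted p = 0.00308). Tnip1, which encodes a partner of the ubiquitin-editing enzyme A20, had 20.2, 21.6 and 14.9 CPM in tMCAO libraries, against 4.64, 4.76 and 4.21 CPM in sham libraries, and rose by 1.92 ± 0.31 (edgeR adjusted p = 0.00107). It reached the 4.54 CPM of the filter in 3 tMCAO and 2 sham libraries, so only the tMCAO group reached it in full. The count for this list is therefore no support for a direction either. The calls of Nfkbia and Tnip1 held under every alternative, with adjusted p-values of at most 0.0208 and 0.00855. Tnfaip3, the A20 gene itself, was singled out after its values were seen. It had 238, 281 and 206 CPM in tMCAO libraries, against 208, 155 and 300 CPM in sham libraries, with wide overlap and a log2 fold change of 0.01 ± 0.21. Tnfaip8, the relative of Tnfaip8l2, had 97.0, 79.8 and 98.5 CPM in tMCAO libraries, against 60.7, 63.0 and 66.9 CPM in sham libraries, and did not pass (0.41 ± 0.17, edgeR adjusted p = 0.116), except with scaling by library totals (0.0412). Tnfaip1 had 32.0, 30.7 and 38.3 CPM in tMCAO libraries, against 39.2, 41.2 and 40.2 CPM in sham libraries. All tMCAO libraries lay below all sham libraries, and the gene did not pass (-0.37 ± 0.20, edgeR adjusted p = 0.225). Tnip2 had 32.5, 34.0 and 4.26 CPM in tMCAO libraries, against 4.64, 8.32 and 14.9 CPM in sham libraries, and passed only where tMCAO 3 was left out (0.00985, or 0.0185 without sham 1 as well).

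Of 3 genes for the shedding of TNF from the membrane, Rhbdf2 rose, beside 9.17% of all genes tested called higher. It encodes iRhom2, which brings the TNF-cleaving protease to the surface of macrophages, and had 7.88, 7.55 and 4.79 CPM in tMCAO libraries, against 2.95, 2.38 and 1.53 CPM in sham libraries (1.43 ± 0.44, edgeR adjusted p = 0.0388). It also passed the filter through the tMCAO libraries alone. The call was lost in 9 of 13 alternatives, at adjusted p-values of 0.05002 to 0.160. Adam17, the gene of the protease, had 77.1 ± 6.64 CPM in tMCAO and 55.0 ± 10.9 CPM in sham and did not pass (0.36 ± 0.19). Rhbdf1 did not pass either (-0.58 ± 0.34).

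**Figure D4:**
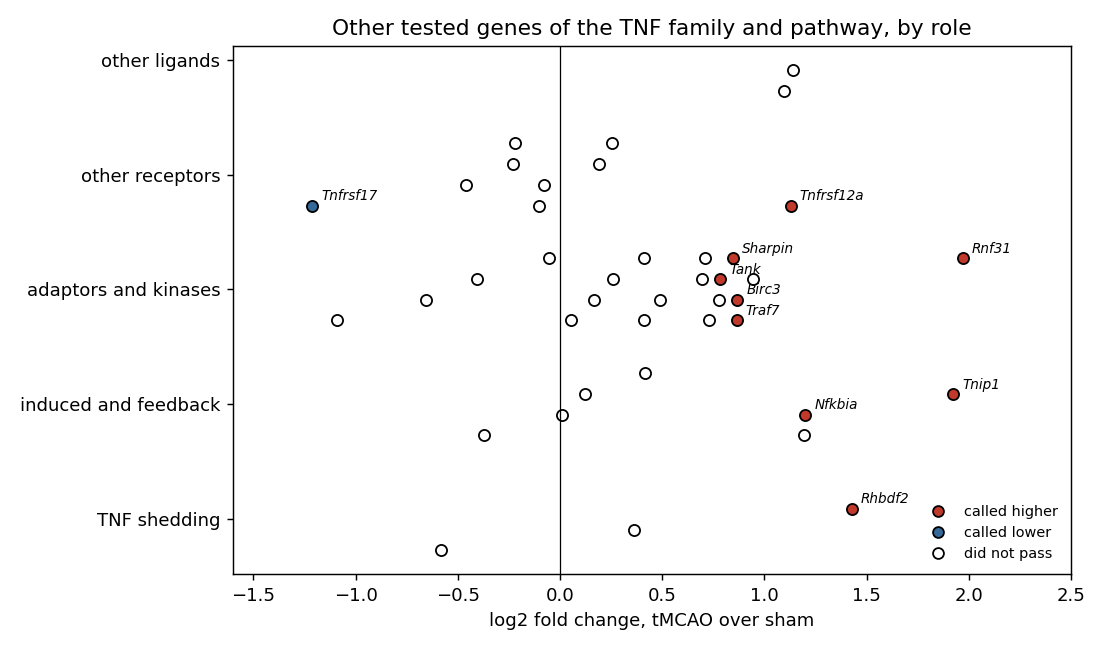
Log2 fold change of tMCAO over sham (horizontal axis) for the 41 tested genes of the 5 role lists (rows; height within a row carries no value), with called genes filled and named. Of these, 9 are called higher, from Tank (0.78) to Rnf31 (1.97), and Tnfrsf17 (-1.21) is called lower.

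The genes whose profile over the 6 libraries lay nearest to that of Tnf were sought among the 5162 annotated genes whose log2 CPM averaged 4 or more, by the root mean square difference of log2(CPM + 1) values centred on each gene's mean. They were Plk2 (0.155), a stress-induced kinase, Cd74 (0.156) and H2-Ab1 (0.179), both of class II antigen presentation, Cxcl2 (0.175), a neutrophil-attracting chemokine, and Gla (0.177), a lysosomal galactosidase. This likeness describes 6 libraries in 2 groups and has no test.

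Markers of other cells were read in the same libraries, where 9.17% of all genes tested were called higher and 8.96% lower. Border-associated macrophage markers summed to 380 to 492 CPM in tMCAO libraries, against 184 to 231 CPM in sham libraries, and 4 of 7 rose. Ms4a7, 1 of the 4, had 207 CPM in tMCAO 3, against 68.9 and 79.8 CPM in tMCAO 1 and 2. Cbr2 went the other way, with means of 25.6 CPM in tMCAO and 37.8 CPM in sham. Like Pf4 and Lyve1, Cbr2 overlapped between the groups and did not pass. Monocyte markers summed to 51.2 to 81.8 CPM in tMCAO, against 29.8 to 56.7 CPM in sham, and 2 of 5 tested rose, Ccr2 and Plac8, while Ly6c2 averaged 14.0 CPM in tMCAO and 12.3 CPM in sham. Neutrophil markers summed to 411 to 1812 CPM in tMCAO, against 1802 to 2290 CPM in sham, and 1 of 8 fell. T and NK cell markers summed to 4.26 to 10.2 CPM in tMCAO, against 5.90 to 14.2 CPM in sham, and none of 7 had enough counts to test. Dendritic cell markers summed to 557 to 719 CPM in tMCAO, against 1093 to 1343 CPM in sham, nearly all of it Siglech, which fell and which microglia also express, while Cd209a rose 4.77-fold (edgeR adjusted p = 0.00347). Cd209a and the monocyte marker Ccr2 lay below the 4.54 CPM of the filter in every sham library, and Plac8 in sham 1 (4.22 CPM). All of them passed it through the tMCAO libraries alone, so these calls are no support for a direction. Astrocyte markers summed to 63.0 to 88.4 CPM in tMCAO, against 136 to 406 CPM in sham, and 2 of 4 tested fell. Oligodendrocyte markers summed to 140 to 339 CPM in tMCAO, against 186 to 1029 CPM in sham, and 1 of 6 fell. Erythroid markers summed to 215 to 380 CPM in tMCAO, against 955 to 6040 CPM in sham, and choroid plexus markers to 2265 to 9927 CPM in tMCAO, against 8592 to 44469 CPM in sham, with no call among 3 and 4 tested. Endothelial markers summed to 74.4 to 206 CPM in tMCAO, against 96.6 to 141 CPM in sham, also with no call. Of the 8 microglial markers 4 fell. Among the markers called lower, Slc1a2 of astrocytes and Mobp of oligodendrocytes lay below 4.54 CPM in tMCAO 1 and 3. They passed the filter through the sham libraries alone. Trac, listed for T and NK cells, and Ighm, listed for B cells, had no line among the known genes and were not read. None of the listed markers that had a line was at 0 in every library. What part such cells have in the levels of Tnf, Tnfsf9, Tnfsf12 and Tnfaip2 was not tested.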

How the data were processed

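Microglia pools were sequenced as PCR-amplified nanopore cDNA from TRIzol-extracted RNA, per the labels' protocols, which speak of tissue where the series speaks of isolated microglia. The submitters' processing notes name minimap2. The sources used here do not state the genome build, annotation, counting rule or use of strand. Raw read counts per gene stand in the deposited table, per the file headers, beside CPM that the authors scaled by library totals (within 4.87e-06 of values recomputed here). It has 38219 lines, 12 of which hold no values and were left out.

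Counts were tested with edgeR 4.0.16 (R 4.3.3): filterByExpr (minimum count 10, minimum total 15), TMM scaling, robust dispersions and quasi-likelihood F tests with group as the only term, and Benjamini-Hochberg adjustment over 13127 genes and loci. The SE is the absolute log2 fold change over the square root of F. Alternatives were library totals, upper-quartile scaling, DESeq2 1.42.0, limma 3.58.1 voom, no filter, the replicate number as a block, each library left out, and sham 1 and tMCAO 3 left out together. Ratios were compared with exact permutation tests over libraries. Floors of 3 counts and the ranges of counts cover counting error only, since PCR reads carry no molecular identifiers.

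The 10 genes, the role and marker lists, and the rule for named genes (all 10, the 5 with the smallest p in each role list, and the 5 nearest to Tnf) were chosen with earlier results of these data known. Genes with no count, Tnfaip3, Traf2, Rbck1, Chuk, Cflar and receptors of the ligands described were named beyond the rule, after their values were seen. In counts simulated from sham levels over 13093 genes, 21 of 66 genes changed 2-fold (31.8%) and 60 of 64 changed 4-fold (93.8%) were recovered. Every simulated gene had the same biological coefficient of variation (22.6%) and no library was set apart, unlike in the data. These shares are therefore not the power for a given gene here. Replicate libraries differed by 5.85 to 12.6 chi-square units per degree of freedom, so none was a copy of another. Promoters are from RefSeq (GRCm38.p6) and 3′ regions from GENCODE M21.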

Additional observations from a re-analysis of the deposited data

How the results depend on the processing

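Tnf and Tnfsf9 kept their calls, and Tnfsf13b, Tnfrsf1a, Tnfrsf1b and Tnfaip8l2 stayed without one, in all 13 alternatives. Of the 10 genes, 2 to 4 were called higher with 1 library left out, 2 with sham 1 and tMCAO 3 both left out, 5 with library totals or with no filter, and 0 were called lower in any setting. Of the 81 other pathway genes, 9 were called higher, but 4 with DESeq2, 12 with library totals, 13 with no filter and 4 to 10 with 1 library left out, and 1 to 2 were called lower. All calls numbered 2380, 4039 with no filter, 1573 with both libraries left out and 1254 to 2590 with 1 left out, the lowest without sham 1. Scaling by library totals moved the median of all genes to 0.11 (log2), and Cd40, Tnfsf10, Tnfsf13 and Tnfaip8 then passed. The Tnfrsf1b share differed by -1.97 to -0.36 percentage points with 1 library left out. Tnfrsf11a, at 0.19 in log2 with all libraries, ranged from -0.0035 without tMCAO 1 to 0.36 without sham 3. Across single genes and alternatives, 319 values kept direction and side of the threshold, 47 lost a call, 10 gained one and 1 turned. For each call lost or gained the cause was not tested.

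Same-numbered libraries did not deviate together (correlations of -0.21, 0.02 and -0.17), so the replicate numbers are not a pairing. With the number as a replicate block, 3 of the 10 genes were called higher, Tnfsf12 having an adjusted p of 0.0638, 5 of the other pathway genes were called higher and 1662 genes were called in all. At these depths the number of counts limits Traf1, Cd40 and most other ligand and receptor genes.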

Other observations

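Among the 40 pathway genes with too few counts to test, 31 had a count, and 5 of these had groups that did not overlap, 4 with tMCAO above (12.9%) and 1 with tMCAO below (3.23%). Among all 18609 untested genes and loci with a count, 6.94% had tMCAO above and 13.8% below. Mlkl, the executor of necroptosis, had 10, 7 and 4 counts in tMCAO libraries and 2, 3 and 0 in sham libraries. The death receptor gene Fas had 9, 12 and 11 counts in tMCAO libraries and 6, 7 and 9 in sham libraries. Tnip3 had 5, 4 and 5 counts in tMCAO libraries against 2, 1 and 4 in sham libraries, Tnfrsf4 had 3 in each tMCAO library against 1, 0 and 1, and Tnfrsf19 had 0, 2 and 0 against 3, 10 and 3. Overlap was read on CPM. These genes were picked after their values were seen, and none was tested.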
